A study of Mus musculus with 67 samples.

Results

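The RNA of 6 genes that serve the pumping of ions and the movement of water across cell membranes was followed through mouse preimplantation development. Atp1b1 and Atp1b3 encode beta subunits of the sodium pump (Na+/K+-ATPase). Aqp3, Aqp8, Aqp9 and Aqp11 encode aquaporins, which are membrane channels. The genes were chosen by name, as the rows of the expression table whose symbols are on this list, and all 6 were found among its 26414 genes. They were not chosen by their levels or by any difference between groups.

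The study exposed C57BL/6 mouse embryos at the 2-cell stage to a full-spectrum lamp at 5000 lx for 6 h (the light group) or kept them in the dark (the control group), and cultured both in a dark incubator. Both groups came from in vitro fertilization, with oocytes of hormone-primed females aged 6 weeks and sperm of males aged 10 weeks. The control group held 7 libraries of 2-cell embryos, 6 of 4-cell embryos, 4 of 8-cell embryos, 13 of morulae and 3 of blastocysts, and the light group held 6, 8, 8, 6 and 6 in the same order, which gives 67 SMART-seq2 libraries of polyadenylated RNA. The labels call each library an embryo, whereas the methods describe single cells picked from dissociated embryos.

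The blastocoel is the fluid-filled cavity that turns a morula into a blastocyst. It forms as the trophectoderm, the outer epithelium, pumps sodium with the Na+/K+-ATPase through its basolateral membrane, and water follows through aquaporins and between the cells behind a seal of tight junctions. The pump needs a catalytic alpha subunit and a beta subunit, which brings the alpha subunit to the membrane. Aqp3 and Aqp9 pass glycerol and other small solutes as well as water, Aqp8 is a water channel, and Aqp11 is an unusual aquaporin that lies mainly in the endoplasmic reticulum.

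The promoters of Atp1b1, Atp1b3 and Aqp3 are shown because the differences between stages and between light and control described here turn on these genes. The sequences are those of RefSeq on GRCm38.p6, run 5′ to 3′ on the strand of the gene from 250 bases before to 50 after an annotated start, and were matched by symbol. All 6 genes had at least 1 window in the table. Of the pair of windows for Atp1b3, the one that holds the annotated 5′ end of the gene is shown, chosen after the matches in both had been seen. The submitters' processing notes name mm9 as the build of the read counts, so that these positions are those of the annotation and not of the counts. Capitals mark a match to GCCNNNGGC, the motif of the TFAP2 factors, or to TATAAA, the TATA box, each searched on both strands.
Atp1b1, chr1:164458306-164458605, minus strand: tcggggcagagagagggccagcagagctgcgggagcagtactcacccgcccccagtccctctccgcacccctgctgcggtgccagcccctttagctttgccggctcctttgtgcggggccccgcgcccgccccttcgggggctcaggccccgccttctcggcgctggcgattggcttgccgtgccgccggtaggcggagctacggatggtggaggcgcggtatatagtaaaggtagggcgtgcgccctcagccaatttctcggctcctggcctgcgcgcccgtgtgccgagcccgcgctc
Atp1b3, chr9:96364382-96364681, minus strand: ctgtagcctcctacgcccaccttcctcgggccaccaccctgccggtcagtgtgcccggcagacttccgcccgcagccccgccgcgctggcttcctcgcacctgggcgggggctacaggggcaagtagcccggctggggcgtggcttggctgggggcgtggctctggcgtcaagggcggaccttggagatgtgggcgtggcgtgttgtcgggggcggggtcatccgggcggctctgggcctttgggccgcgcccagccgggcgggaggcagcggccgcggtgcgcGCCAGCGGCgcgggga
Aqp3, chr4:41098134-41098433, minus strand: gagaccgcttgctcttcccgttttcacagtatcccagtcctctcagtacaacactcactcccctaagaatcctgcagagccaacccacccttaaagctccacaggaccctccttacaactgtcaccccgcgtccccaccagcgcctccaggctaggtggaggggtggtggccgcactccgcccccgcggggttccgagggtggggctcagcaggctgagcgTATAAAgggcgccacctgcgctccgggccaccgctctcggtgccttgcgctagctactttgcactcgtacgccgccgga
The Atp1b1 and Atp1b3 windows were 71% and 76% G and C, and the Aqp3 window was 64%, where the median of the 32851 windows in the table was 52.7% and their upper quartile was 61.7%. The Atp1b3 window shown held 1 match to the TFAP2 motif and the other Atp1b3 window, chr9:96363666-96363965, held 0, where 16.6% of all windows held at least 1. The Aqp3 window held 1 match to TATAAA, as did 13.6% of all windows with at least 1. The Atp1b1 window held no match to these motifs nor to GGAATG, the motif of the TEAD factors, which 14.7% of all windows held. A match is a description of the letters only.

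In the deposited values each library's reads per gene stand divided by its size factor. They were brought back to reads and are given here as CPM, counts per 1e6 reads outside CT010467.1 and Gm42418, a pair of ribosomal RNA genes. This pair took 54.0% to 89.3% of each library, and its share differed between groups, with 73.9% to 76.9% in the control 8-cell libraries and 68.9% to 73.9% in the light ones. The remaining reads numbered 318177 to 2867034 per library (median 1194289), so that a gene at 0 reads can hold up to 1.05 to 9.43 CPM, the value of 3 reads, by counting error alone. The ratio of Gm42418 to CT010467.1 reads did not overlap between light and control at the 2-cell, 8-cell and morula stages, with 2.34 to 4.14 in control morulae and 1.49 to 1.67 in light morulae. The libraries of an arm may share an embryo: at least 10 reads on 6 Y-linked genes were present in none of the 4 control 8-cell, 13 control morula and 3 control blastocyst libraries, but in all 8 light 4-cell and all 6 light blastocyst libraries. The sources used here do not say which libraries share an embryo, litter or culture, so that the p-values measure the spread between libraries only. The part of these differences in the results was not tested. By correlation across genes, 5 of the 6 control 4-cell libraries and 12 of the 13 control morula libraries were nearer to the light libraries of their stage than to each other, with the clearest gap in control 4-cell 3 (median r 0.888 against 0.851). Across genes, r describes these libraries only.

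The 6 genes were highest at different stages (the plot of every library). Per kilobase of exon, Atp1b3 had the highest median of the 6 genes at the 2-cell, 4-cell and 8-cell stages of both groups, and Aqp3 had the highest in morulae and blastocysts. Atp1b3 had 99.3 CPM per kilobase in control 2-cell libraries and 246 in control 8-cell libraries, against 49.1 in control morulae. Aqp3 had 6.02 CPM per kilobase in control 2-cell libraries, 174 in control morulae and 87.2 in control blastocysts. With the coding length in place of the exons, Atp1b3 was first in control blastocysts, with 183 against 182 CPM per kilobase for Aqp3, so these neighbours cannot be ordered there. Aqp8 was last or tied for last in every group.

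**Figure D1:**
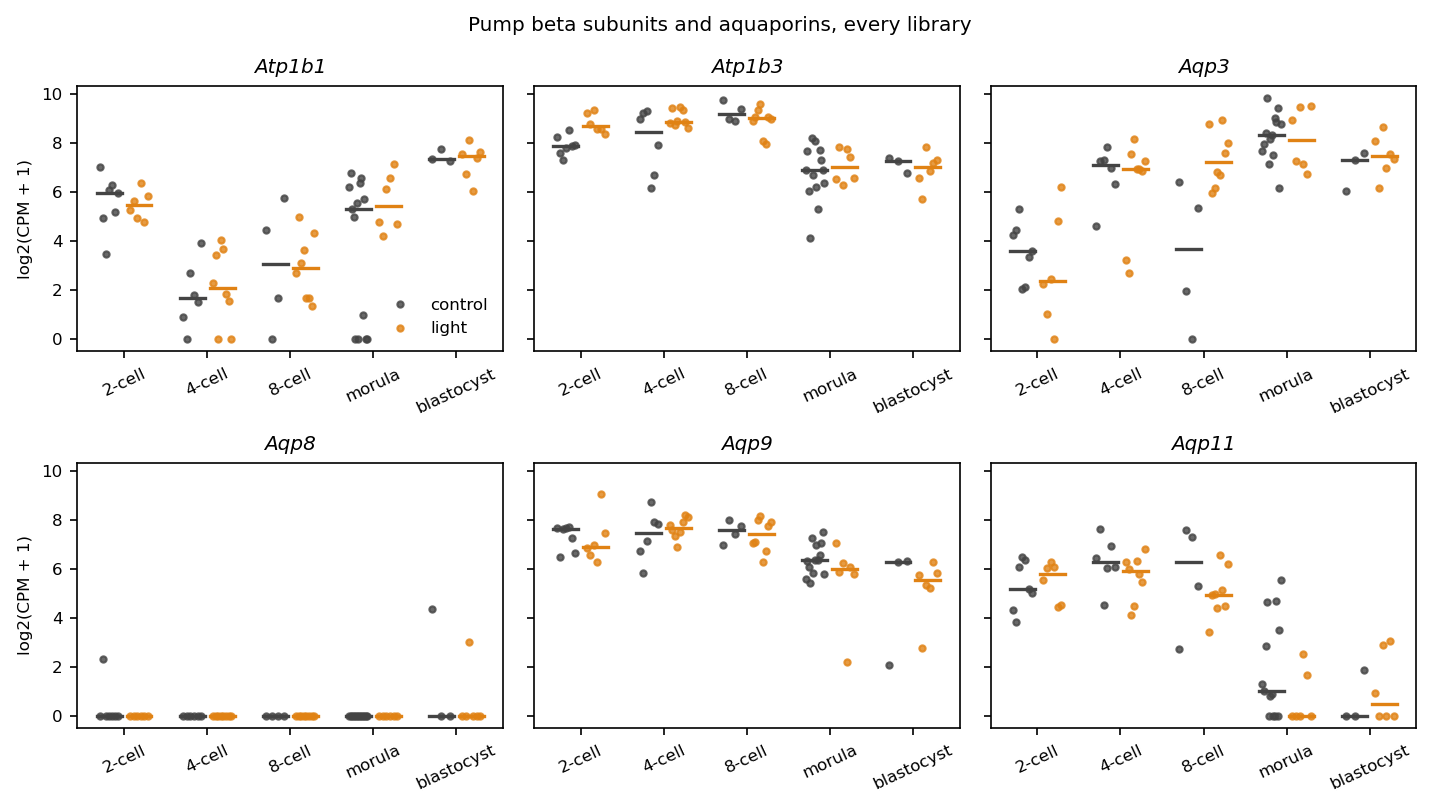
Level of each gene in every library as log2(CPM + 1), by stage, with control in grey and light in orange and a bar at the median. Atp1b1 is lowest at the 4-cell stage and highest in blastocysts, Atp1b3 and Aqp11 drop in morulae, and Aqp8 has reads in 3 libraries only. The median of Aqp3 is high from the 4-cell stage except in the control 8-cell libraries, while some 4-cell libraries lie low.

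Between stages, a call needed an adjusted p under 0.05 from limma, fitted to log2(CPM + 1) over all genes with the Benjamini-Hochberg adjustment, together with at least a 2-fold difference. Of the 6 genes, 5 passed the filter of more than 1 CPM in at least 3 of the libraries compared, in each of these comparisons, and Aqp8 passed in none. From the 2-cell to the 4-cell stage, 2 of the 5 were called in the control group, where 47.9% of all genes tested were called, and 2 in the light group, against 35.1% of all genes. From the 4-cell to the 8-cell stage, 0 of the 5 were called in either group, where 1.86% of genes were called in control and 2.39% in light. At an unadjusted p under 0.05, 2 of these 5 passed in control (Atp1b3 and Aqp3) and 0 in light. From the 8-cell stage to the morula, 3 of the 5 were called in control and 4 in light, where 15.2% and 10.6% of all genes were called. From the morula to the blastocyst, 0 were called in control and 1 in light, against 13.2% and 13.3% of all genes, and 3 of the 5 had an unadjusted p under 0.05 in control (Atp1b1, Aqp3 and Aqp9). Where limma called 0 members, edgeR and DESeq2 on the recovered reads also called 0. The control morula to blastocyst step rests on 3 blastocyst libraries, and the median log2 fold change over all genes was 0.40 in it. The median was -0.50 and -0.33 from the 2-cell to the 4-cell stage in control and light, and lay between -0.08 and 0.05 in the other steps.

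**Figure D2:**
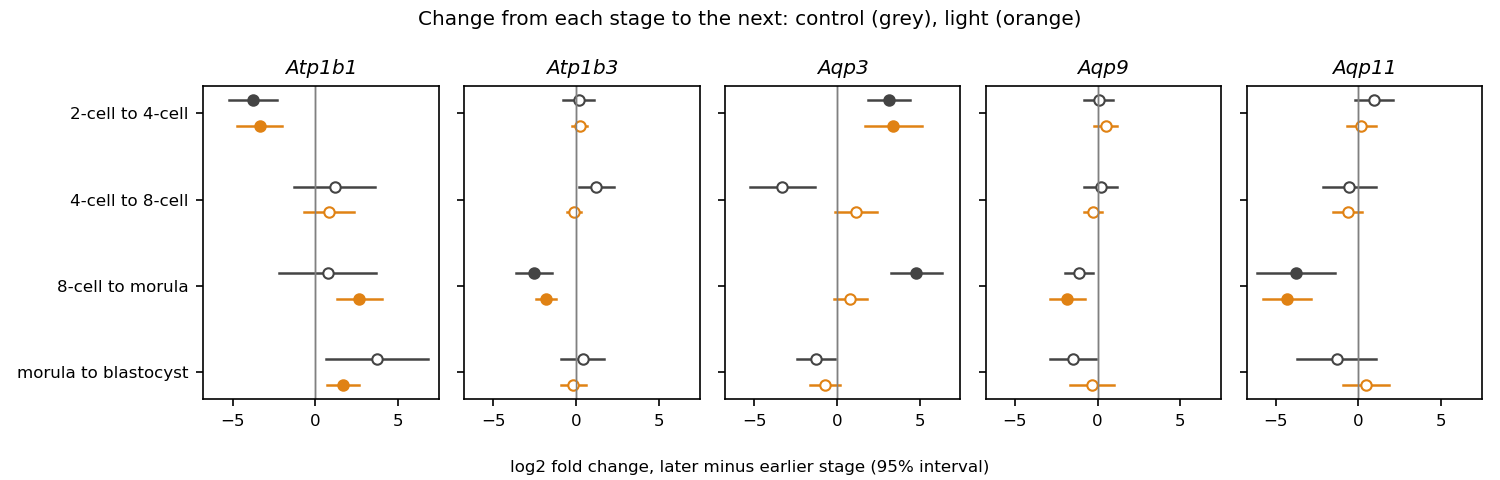
Log2 fold change of the 5 tested genes at each step between stages, later minus earlier, with its 95% interval, control in grey and light in orange. Filled points are those called, and in both groups these include the 2-cell to 4-cell step for Atp1b1 and Aqp3 and the 8-cell to morula step for Atp1b3 and Aqp11. The other filled points are the 8-cell to morula step of Aqp3 in control and of Atp1b1 and Aqp9 in light, and the morula to blastocyst step of Atp1b1 in light.

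Atp1b1 fell after the 2-cell stage and was high again in blastocysts. Its level in control 2-cell libraries was 10.0 to 130 CPM (median 61.7), and in control 4-cell libraries it was 0 to 14.3 CPM (median 2.19). Light 2-cell libraries had 26.4 to 81.3 CPM (median 43.5) and light 4-cell libraries 0 to 15.7 CPM (median 3.27), and these groups did not overlap, as in 12.6% of all genes. This was a log2 fold change of -3.76 in control (SE 0.69, limma adjusted p = 0.000146) and -3.36 in light (SE 0.66, limma adjusted p = 0.000212).

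In 8-cell embryos Atp1b1 differed widely between libraries. The 4 control 8-cell libraries, 1 to 4, had 21.1, 0, 2.20 and 52.6 CPM, and the light ones had 1.53 to 31.1 CPM (median 6.57). In light morulae it was 17.7 to 141 CPM (median 47.5), and the rise from the 8-cell stage was called although the groups overlapped (log2 fold change 2.66, SE 0.66, limma adjusted p = 0.00865). Control morulae fell into libraries without and with the transcript: 4 of the 13 had no read, 1 had a single read, and the other 8 had 30.5 to 109 CPM. Their step from the 8-cell stage gave a log2 fold change of 0.76 (SE 1.42, limma adjusted p = 0.759), which turned to -0.23 without control 8-cell 2.

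The 5 control morulae with at most 1 read of Atp1b1 had a summed level of the 15 trophectoderm markers of 351, 374, 408, 644 and 1226 CPM, while the other 8 had 1023 to 3961 CPM. These sets of libraries were read off the values and are described without a test. If a library holds more than 1 cell, fewer cells of a type and less RNA per cell cannot be told apart. The part of cell type in the level of Atp1b1 was not tested.

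In blastocysts Atp1b1 reached its highest levels. The 3 control blastocysts had 162, 214 and 153 CPM, all above the highest control morula, as 8.77% of all genes were apart at this step. The log2 fold change from the morula was 3.73 with an SE of 1.49 and was not called (limma adjusted p = 0.105), although it passed in a single fit over all libraries (adjusted p = 0.00798). Light blastocysts had 64.8 to 276 CPM (median 177), and the rise from light morulae was called with overlapping groups (log2 fold change 1.66, SE 0.47, limma adjusted p = 0.0169). That call was lost on the deposited scale, with a log2 fold change of 0.95 (limma adjusted p = 0.167), in the single fit over all libraries (adjusted p = 0.28) and without light blastocyst 23 (adjusted p = 0.0501).

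Atp1b3 fell at the 8-cell to morula step in both groups. The 4 control 8-cell libraries had 866, 501, 485 and 674 CPM, and the 13 control morulae had 16.7 to 296 CPM (median 117), without overlap. Light 8-cell libraries had 253 to 767 CPM (median 515) and light morulae had 78.2 to 232 CPM (median 133), again without overlap. Such separation was seen in 5.84% of all genes in control and 3.68% in light at this step. On the log2 scale the fall was -2.53 in control (SE 0.53, limma adjusted p = 0.00167) and -1.80 in light (SE 0.29, limma adjusted p = 0.000176). Control blastocysts had 165, 153 and 110 CPM, within the range of control morulae, and light blastocysts had 51.9 to 229 CPM, with light blastocyst 15 below every light morula.

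The share of Atp1b1 in the reads of Atp1b1 and Atp1b3 differed by stage (the plot of the share of beta subunit reads). Of the reads on both genes, Atp1b1 took a median of 17.4% in control 2-cell libraries, 1.32% in 4-cell, 1.42% in 8-cell, 31.2% in morulae and 58.1% in blastocysts. The medians in the light group were 8.23%, 0.646%, 1.14%, 26.4% and 55.4%. Atp1b1 held more than 50% of these reads in 0 control libraries before the morula, 3 of 13 control morulae, 2 of 3 control blastocysts, 0 of 6 light morulae and 5 of 6 light blastocysts. Divided by exon length, since Atp1b1 has 3081 bases of exon and Atp1b3 has 2389, the count was 2 of 13, 2 of 3, 0 of 6 and 2 of 6. The shares rest on 51 to 1961 reads of both genes in a library and are given as a description, with no test. They leave out Atp1b2, a further beta subunit gene. In control 8-cell libraries Atp1b2 had 15.6 to 179 CPM, where Atp1b1 had 0 to 52.6 CPM. In light 8-cell libraries Atp1b2 had 0 to 22.3 CPM, where Atp1b1 had 1.53 to 31.1 CPM.

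**Figure D3:**
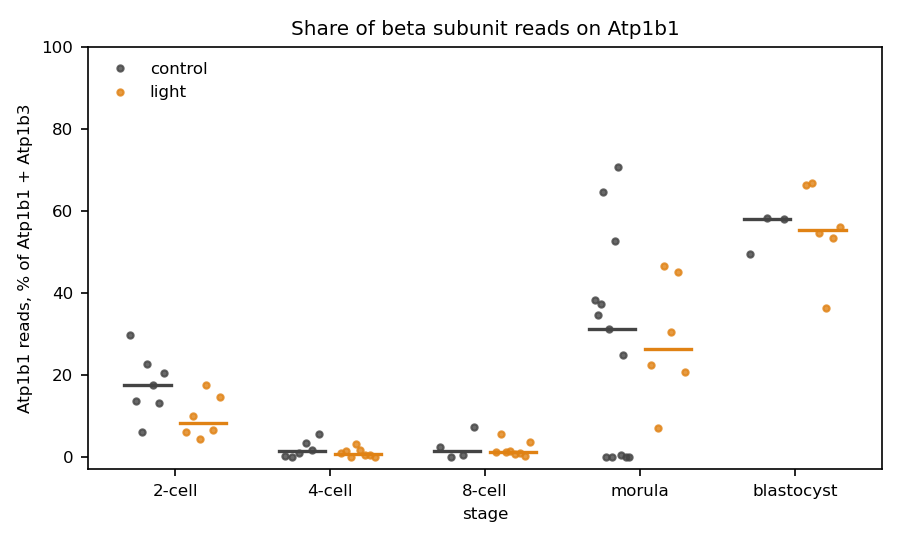
Reads on Atp1b1 as a percent of the reads on Atp1b1 and Atp1b3 in every library, by stage, with control in grey, light in orange and a bar at the median. The share is under 8% in every 4-cell and 8-cell library and has medians of 58.1% and 55.4% in control and light blastocysts, while control morulae spread from 0 to 70.6%.

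Aqp3 rose from the 2-cell to the 4-cell stage in both groups and again from control 8-cell libraries to control morulae. Control 2-cell libraries had 3.15 to 38.5 CPM (median 11.0) and control 4-cell libraries had 23.9 to 230 CPM (median 138). Light 2-cell libraries had 0 to 72.3 CPM (median 4.16) and light 4-cell libraries had 5.47 to 286 CPM (median 123). The rise was called in both groups, with a log2 fold change of 3.13 in control (SE 0.62, limma adjusted p = 0.000279) and 3.42 in light (SE 0.84, limma adjusted p = 0.0021). Light 4-cell 1 and light 4-cell 5, at 8.33 and 5.47 CPM, stood apart below the other 6 light 4-cell libraries.

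At the 8-cell stage the groups parted, as is described with the comparison of light and control. Morulae of both groups then had similar levels of Aqp3, 71.0 to 915 CPM (median 317) in control and 107 to 733 CPM (median 325) in light. From the 8-cell stage, the rise was called in control (log2 fold change 4.81, SE 0.76, limma adjusted p = 8.13e-05), with an overlap through control 8-cell 1 at 84.5 CPM. In light it was 0.81 (SE 0.48, limma adjusted p = 0.293). Blastocysts had 64.4, 159 and 194 CPM in control and 72.0 to 404 CPM (median 177) in light.

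Aqp9 was high from the 2-cell to the 8-cell stage and lower afterwards. Its median was 196, 182 and 189 CPM in the control 2-cell, 4-cell and 8-cell libraries and 118, 204 and 174 CPM in the light ones. Control morulae had 41.7 to 182 CPM (median 79.8) and light morulae had 3.57 to 132 CPM (median 61.9). The fall at this step was called in light (log2 fold change -1.83, SE 0.51, limma adjusted p = 0.0192). In control the log2 fold change was -1.14 (SE 0.41, limma adjusted p = 0.0609), and 4 of 11 other settings called it. Control blastocysts 1 to 3 had 3.22, 76.5 and 79.7 CPM and light blastocysts had 5.90 to 75.4 CPM (median 45.8). The control step from the morula was -1.49 on the log2 scale (SE 0.67, limma adjusted p = 0.153), and -0.0807 without control blastocyst 1.

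Aqp11 was low or at 0 in most libraries after the 8-cell stage. The 4 control 8-cell libraries had 5.64, 192, 154 and 37.8 CPM, and control morulae had 0 to 45.5 CPM (median 1.00), with 4 of 13 at 0. Light 8-cell libraries had 9.61 to 92.9 CPM (median 29.6), and light morulae had 0 to 4.76 CPM, with 4 of 6 at 0. In log2 terms the change was -3.78 in control (SE 1.14, limma adjusted p = 0.0241) and -4.31 in light (SE 0.70, limma adjusted p = 0.00016), and the light groups did not overlap, as in 3.68% of all genes. In the light comparison the gene passed the filter through the 8-cell libraries, where it is high. The control call was lost without control 8-cell 2, 3 or 4 in turn (adjusted p = 0.12, 0.105 and 0.0536). In blastocysts 2 of 3 control and 3 of 6 light libraries were at 0.

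Aqp8 was found in 3 of the 67 libraries. They were control 2-cell 9 with 7 reads (4.03 CPM), control blastocyst 1 with 18 reads (19.3 CPM) and light blastocyst 23 with 11 reads (7.09 CPM). No other library had a read, so that no difference in Aqp8 was detectable at this depth. The blastocyst library with most Aqp8, control blastocyst 1, had the lowest trophectoderm marker sum of the 9 blastocyst libraries, 1546 CPM against 6249 and 12090 CPM in the other control blastocysts and 12839 to 16956 CPM in light blastocysts. Its inner cell mass marker sum was 3776 CPM, against 1725 and 400 CPM in the other control blastocysts and 314 to 571 CPM in light blastocysts. Its primitive endoderm marker sum was 1643 CPM, against 819 and 371 CPM in control and 796 to 1186 CPM in light. All 15 trophectoderm and all 8 inner cell mass markers had reads in both groups, and of the 8 primitive endoderm markers Foxa2 was at 0 in both groups and Sox7 in control. The other blastocyst library with Aqp8, light blastocyst 23, had the highest trophectoderm sum of the 9, 16956 CPM, and an inner cell mass sum of 314 CPM and a primitive endoderm sum of 796 CPM, the lowest of the light blastocysts. These blastocyst libraries with Aqp8 thus had the lowest and the highest trophectoderm sums. The trophectoderm marker sums of the control and light blastocysts did not overlap.

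The comparison of light with control within a stage sets the libraries of exposed embryos beside those of embryos kept in the dark. The exposure cannot be told apart from the other differences between the arms given above. Only Aqp3 at the 8-cell stage was called, and it was higher in the light group. At the 2-cell stage 0 of the 5 genes tested were called, where 12% of all genes were. At the 4-cell stage 0 of 5 were called, against 2.15% of all genes, and at the 8-cell stage 1 of 5, against 8.49% of all genes. In morulae and blastocysts 0 of 5 were called, against 1.59% and 1.9% of all genes. At an unadjusted p under 0.05, 1 of the 5 passed in 2-cell and 1 in 4-cell embryos, Atp1b3 each time, and 0 in morulae and blastocysts. Both edgeR and DESeq2 called Aqp3 at the 8-cell stage and no other member at any stage. The median log2 fold change of all genes lay between -0.04 and 0.25 in these comparisons.

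**Figure D4:**
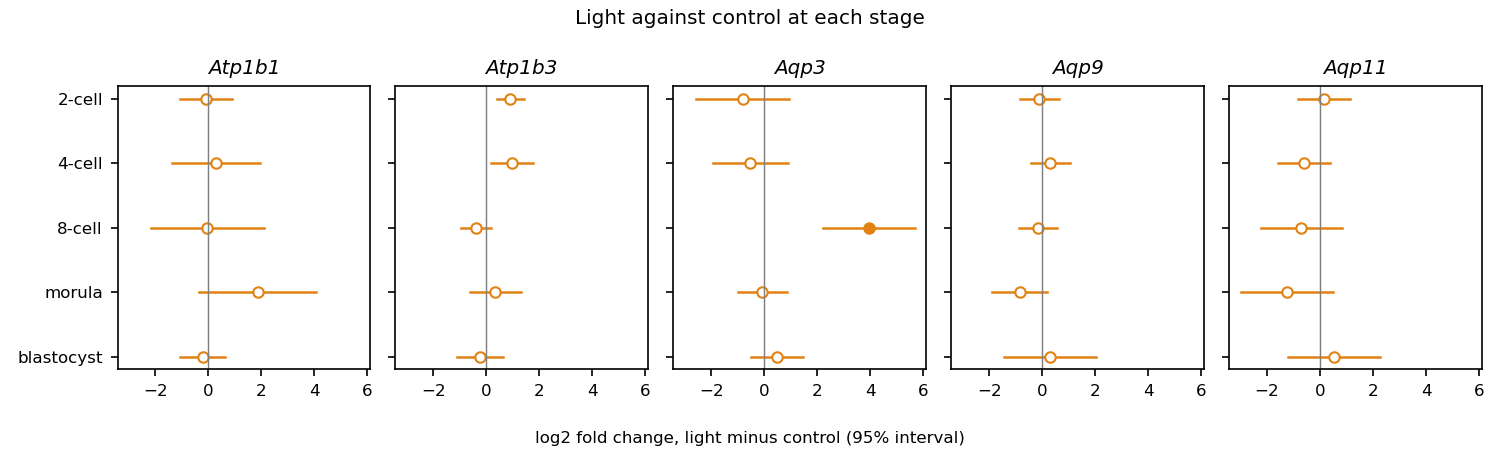
Log2 fold change of the 5 tested genes in light against control at each stage, light minus control, with its 95% interval. The filled point, Aqp3 at the 8-cell stage at 3.94, is the one that was called, and the interval of Atp1b1 in morulae runs from -0.34 to 4.07.

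The 4 control 8-cell libraries had 84.5, 2.97, 0 and 39.8 CPM of Aqp3, from 60, 4, 0 and 59 reads. The 8 light 8-cell libraries had 62.3 to 491 CPM (median 154). The groups overlapped through control 8-cell 1 only, which lay above light 8-cell 6 and 7 at 62.3 and 70.3 CPM. The log2 fold change was 3.94 on the log2(CPM + 1) scale (95% interval 2.20 to 5.67, SE 0.84, limma adjusted p = 0.00433), and it stayed called without each library in turn, between 2.79 and 4.93.

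The difference between the groups in the steps around the 8-cell stage was tested for every gene by an interaction term. Aqp3 was called at 2 of the 4 steps and no other of the 5 genes was called. From the 4-cell to the 8-cell stage the log2 change was -3.29 in control (SE 0.95, limma adjusted p = 0.0694) and 1.16 in light (SE 0.61, limma adjusted p = 0.33), a difference of 4.46 (95% interval 2.03 to 6.89, limma adjusted p = 0.0245), where 4.78% of all genes were called. From the 8-cell stage to the morula the difference was -4.00 (SE 0.98, limma adjusted p = 0.0157), where 2.41% of genes were called. The control step of -3.29 was called on the deposited scale (limma adjusted p = 0.0136), with quantile normalization (0.0444), in the single fit over all libraries (0.0121) and without control 4-cell 1 (0.0366) or control 8-cell 1 (0.0227). Both differences share the control and light 8-cell libraries with the comparison at that stage, where light minus control was 3.94. Light minus control was -0.52 at the 4-cell stage and -0.07 in morulae, so that both differences mostly restate the 8-cell comparison. Neither difference was called by edgeR (adjusted p = 0.0844 and 0.0864) or DESeq2 (adjusted p = 0.116 and 0.0636) on the recovered reads, nor without control 8-cell 2 (limma adjusted p = 0.0659 and 0.0648) or control 8-cell 3 (limma adjusted p = 0.0929 and 0.0938). At the 2-cell to 4-cell and the morula to blastocyst steps 0 of the 5 were called, against 4.06% and 1.5% of all genes, and 0 had an unadjusted p under 0.05. At the 4-cell to 8-cell step Atp1b3 also had an unadjusted limma p under 0.05 (0.0146). Its difference was -1.36 (95% interval -2.43 to -0.28, limma adjusted p = 0.136).

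Other transcripts differed between the same 8-cell libraries. The summed level of 10 genes expressed in 2-cell embryos (Zscan4 family members, Usp17la and the like) was 352, 558, 452 and 143 CPM in control 8-cell libraries 1 to 4 and 4.12 to 167 CPM (median 64.0) in light 8-cell libraries, whereas control 4-cell libraries had 11.8 to 99.1 CPM. The 6 oocyte genes summed to 179 to 302 CPM in control 8-cell libraries and 52.2 to 160 CPM in light ones. Of the 15 trophectoderm markers 8 had reads in the 4 control 8-cell libraries and 13 in the 8 light ones. Their sums were 229 to 473 and 197 to 817 CPM. Cdx2, Gata2, Krt8, Krt7, Elf5, Dppa1 and Plac1 were at 0 in all 4 control libraries, and Gata2 and Elf5 also in all 8 light ones. The light group was read more deeply, with 3 reads over the group standing for 0.751 CPM in control and 0.266 CPM in light. The inner cell mass markers summed to 419 to 608 CPM (median 507) in control 8-cell libraries and 245 to 1535 CPM (median 1152) in light ones. The primitive endoderm markers summed to 165 to 314 CPM (median 234) in control and 241 to 621 CPM (median 400) in light. Limma called 3 of the 9 trophectoderm markers tested, all higher in light. Of the inner cell mass and primitive endoderm markers, limma called 1 of 7 and 2 of 4, also all higher in light. It called 1 of 6 oocyte genes and 1 of 6 genes of 2-cell embryos, both lower in light, against 8.49% of all genes. The part of these differences in the result for Aqp3 was not tested.

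Atp1b3 came nearest to a call in early embryos. Control 2-cell libraries had 158 to 370 CPM (median 237) and light ones had 330 to 654 CPM (median 413), overlapping through control 2-cell 12 and light 2-cell 16. Light minus control was 0.91 on the log2 scale (95% interval 0.41 to 1.42, SE 0.25), under the fold change of 2 that a call requires, with a limma adjusted p of 0.0128. Without control 2-cell 12 it was 1.02 (limma adjusted p = 0.00844) and without light 2-cell 16 it was 1.00 (limma adjusted p = 0.00863), and it was then called. It was not called in the other 11 of the 13 fits that left out 1 library, nor in 11 of 12 other settings. The lowest estimate over those settings was 0.80. At the 4-cell stage the control libraries split, with 508, 592 and 627 CPM in numbers 1 to 3 and 71.5, 103 and 241 CPM in numbers 4 to 6, while the light libraries had 397 to 717 CPM. The difference there was 0.97 on the log2 scale (95% interval 0.19 to 1.76, SE 0.38, limma adjusted p = 0.168). At the 8-cell stage it was -0.39 (95% interval -0.95 to 0.18).

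For the other members the intervals were wide in late embryos. Atp1b1 in morulae gave 1.86 (95% interval -0.34 to 4.07, limma adjusted p = 0.374), with the 4 control morulae at 0 and no light morula at 0. Over 12 other settings this estimate ran from 0.29 to 2.93. In blastocysts Atp1b1 gave -0.21 (95% interval -1.06 to 0.64, limma adjusted p = 0.868), and the sign turned without light blastocyst 24 (0.0334). Aqp9 and Aqp11 in morulae gave -0.85 (95% interval -1.89 to 0.19) and -1.24 (95% interval -2.99 to 0.50). Aqp3 in blastocysts gave 0.49 (95% interval -0.48 to 1.46, limma adjusted p = 0.674) and took the other sign, -0.27, on the deposited scale. A missed threshold at these sizes does not show equal levels.

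The rest of the machinery was followed in a list of other pump subunits and regulators, other aquaporins, other ion transporters and tight junction genes, of which 31 from the table are reported. In light against control, limma called 4 of the 14 tested in 8-cell embryos (3 higher, 1 lower), against 8.49% of all genes. It called 0 of the 22 tested in 2-cell embryos, against 12% of all genes, and 0 of 15 each in 4-cell embryos, morulae and blastocysts, against 2.15%, 1.59% and 1.9%. The median log2 fold change of the listed genes was -0.18, -0.19 and 0.19 in 2-cell, 4-cell and 8-cell embryos, beside 0.05, 0.17 and 0.08 over all genes. It was 0.49 in morulae and 0.29 in blastocysts, beside 0.25 and -0.04.

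Atp1b2, another beta subunit gene, was lower in light 8-cell embryos (the plot of pathway genes). The 4 control libraries had 15.6 to 179 CPM (median 91.7) and the light ones had 0 to 22.3 CPM (median 6.25), overlapping, with a log2 fold change of -3.77 (limma adjusted p = 0.0113). The call was lost without control 8-cell 4 (adjusted p = 0.0542). Atp1b2 and Cldn6 are named here after their values were seen.

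Among the tight junction genes, F11r, which encodes the adhesion molecule JAM-A, had 71.9 to 165 CPM in control 8-cell libraries and 216 to 721 CPM in light ones, without overlap, as in 5.61% of all genes (log2 fold change 2.33, limma adjusted p = 6.6e-05). Cldn4, a claudin, had 2.20 to 83.2 CPM in control and 46.4 to 668 CPM in light, overlapping (log2 fold change 3.95, limma adjusted p = 0.00113). Cldn6, another claudin, had a log2 fold change of 2.90 (limma adjusted p = 0.0473), a call that was lost in 4 of 11 other settings and in 10 of the 12 fits that left out 1 library.

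**Figure D5:**
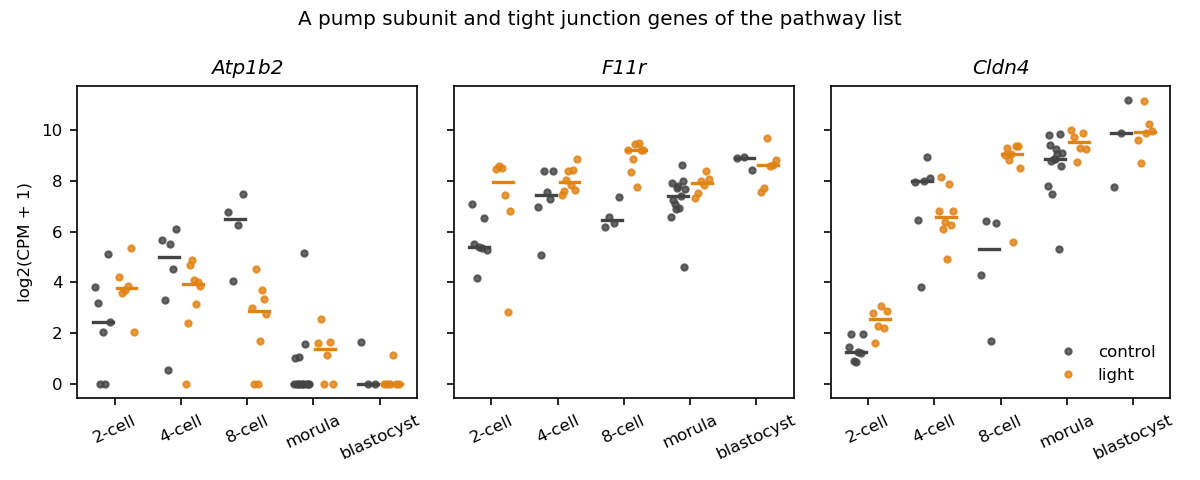
Levels of Atp1b2, F11r and Cldn4 in every library as log2(CPM + 1), by stage, control in grey and light in orange, with a bar at the median. At the 8-cell stage the light libraries of F11r lie above all control libraries, those of Cldn4 lie mostly above and those of Atp1b2 mostly below.

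Across stages, the same list had 12 of 20 genes called from the 2-cell to the 4-cell stage in control and 6 of 17 in light, where 47.9% and 35.1% of all genes were called. It had 0 of 14 and 3 of 15 at the next step, against 1.86% and 2.39% of all genes. From the 8-cell stage to the morula it had 3 of 14 and 4 of 14, against 15.2% and 10.6%, and from the morula to the blastocyst 1 of 14 and 4 of 16, against 13.2% and 13.3%. The 1 control and 4 light calls at this last step were all higher in blastocysts. From the 2-cell to the 4-cell stage in control, 5 were higher and 7 lower, and in light 3 were higher and 3 lower.

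The genes with a pattern most like each member over the 67 libraries were found by Pearson's r on log2(CPM + 1) among 11398 genes. They are given as a description, since libraries of a stage share much of their profile. Those of Aqp8, which had reads in 3 libraries only, are left out. Atp1b1 was nearest to Sh3tc2 (r = 0.74), Nme7 (0.74) and Clic4 (0.73). Atp1b3 was nearest to Obox8 (0.79), Klf17 (0.75) and Ctsb (0.75), and Aqp3 to Lasp1, Vnn1 and Fbp2 (0.79 each). Aqp9 was nearest to Plpp5 (0.71), Xpr1 (0.70) and Tnfsf13b (0.68). Aqp11 was nearest to Zp3, a zona pellucida gene of the oocyte (0.85), Exoc3l2 (0.83) and D7Ertd443e (0.81). Between the members themselves r lay between -0.53, for Aqp3 with Aqp11, and 0.54, for Atp1b3 with Aqp11.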

How the data were processed

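RNA of 67 libraries was sequenced by the authors after SMART-seq2 amplification. Per the labels, the submitters' processing notes name HISAT2, HTSeq 0.9.1 and mm9. The paper's methods describe RPKM, but the deposited values are a signal, namely each library's reads per gene over its size factor, with no division by transcript length. Multiplied back, at least 99.95% of values per library were whole within 0.01 reads. Total reads were 836011 to 8551674 (median 4632053). The closest pairs of libraries within a group differed beyond counting error (chi-square per degree of freedom 6.63 to 19.9). A further 24 symbols read as dates, and none was a member.

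CPM were computed over reads outside CT010467.1 and Gm42418. limma 3.58.1 (eBayes with trend, R 4.3.3) was fitted to log2(CPM + 1) with Benjamini-Hochberg adjustment over all genes tested, each comparison on the libraries of its own groups and with no covariate. With a pseudocount of 1, fold changes can be too small or too large where libraries are at or near 0. The step differences of Aqp3 were 4.46 and -4.00 in limma, but 2.82 and -2.82 in edgeR. Calls need an adjusted p under 0.05 and at least a 2-fold difference, as in the study. Other scalings, pseudocounts, filters, edgeR 4.0.16 and DESeq2 1.42.0 were alternatives. The code was tested on simulated data. From the pathway list, up to 3 called genes per light comparison were named, by smallest p, others (Atp1b2 and Cldn6) were named after their values were seen, and some listed genes are not reported here. The members and gene lists were chosen with earlier results of these data known. Floors of reads cover counting error only, and the 95% intervals cover the spread between libraries.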

Additional observations from a re-analysis of the deposited data

Results flagged for a closer look

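Aqp8 in control 2-cell 9 (4.03 CPM) and in light blastocyst 23 (7.09 CPM) was far from the other libraries of its group, which were all at 0, so that the gap was the whole range (ratio 1.0). Aqp9 in light 2-cell 15 was 521 CPM from 434 reads, while the next light 2-cell library had 173 CPM, a gap of 0.783 of the range of the group. In all, 3 of the 42 groups of 4 to 10 libraries with unequal values had such a library. The critical values are set for about 1 in 20 in normally distributed values, a rate that does not hold for CPM with many values at 0. Where only 1 library of a group has reads, as for Aqp8, the gap is always the whole range.

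The step of Aqp3 from the 4-cell to the 8-cell stage differed between light and control by 4.46 on the log2 scale, and the step from the 8-cell stage to the morula by -4.00. Both use the 4 control and the 8 light 8-cell libraries, as does the comparison of light with control at that stage.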

How the results depend on the processing

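Of 19 called results, refitted 505 times under other settings or without 1 library, 469 refits kept the call and direction, 36 lost the call and 0 reversed it. The count of members called between light and control was 1 under every other setting, and 1 to 2 without a single library. With the replicate numbers as a block, possible at 3 of the 5 stages, 1 member was called there (Atp1b3 at the 2-cell stage, log2 fold change 1.31) against 0 without the block. The count of called differences between steps was 2, but 0 with a pseudocount of 10, in edgeR, in DESeq2 and with the replicate block, 1 with no filter on low values, and 0 to 2 without a single library. For Aqp3 the pseudocount of 10 gave 3.00 and -2.73 (adjusted p = 0.0555 each), and the block gave 3.84 and -3.95 (adjusted p = 0.245 and 0.275). The cause was not tested. The sign reversed for Aqp3 in light against control blastocysts on the deposited scale (-0.27), and, without a single library, for Atp1b1 in the control 8-cell to morula step (-0.23 to 1.68) and in light against control blastocysts (-0.38 to 0.0334). The call of Aqp9 at the light 8-cell to morula step was lost with the block (adjusted p = 0.0549), and that of Aqp11 at the control step with a pseudocount of 0.1 (adjusted p = 0.0516). The deposited scale moved the median log2 fold change over all genes from -0.04 to -0.64 in light against control blastocysts and from 0.01 to -0.45 in the light morula to blastocyst step. Replicate numbers were shared by 2 to 5 libraries in 9 comparisons, but the deviations of same-numbered libraries correlated between -0.07 and 0.06, with 0 pairs over 0.1, so that a number was not taken as a pair. A limit of 200000 reads left out no library. For a gene at 0 in a whole group, such as Aqp8, 3 reads over that group stand for 0.225 to 0.751 CPM.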
